A study of Mus musculus with 12 samples.

Results

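The 10 transcripts described here are messenger RNAs made from the mitochondrial genome, mt-Nd1, mt-Nd4, mt-Nd5, mt-Nd6, mt-Cytb, mt-Co1, mt-Co2, mt-Co3, mt-Atp6 and mt-Atp8. They were found by their symbols among 56691 gene rows, and all 10 had a row and enough counts to be tested in every comparison. The annotation places 37 genes on the mitochondrial chromosome, of which 13 code for proteins, 22 for transfer RNAs and 2 for ribosomal RNAs. The other protein-coding genes, mt-Nd2, mt-Nd3 and mt-Nd4l, are given beside the 10.

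RNA came from palatal shelves of mouse embryos at gestational day 12, the outgrowths that later meet to form the roof of the mouth. In the knockout embryos Dnmt1, whose product carries DNA methylation over to newly made DNA strands, was conditionally deleted, and no treatment was given. AzadC embryos were wild type and exposed to 5-aza-2'-deoxycytidine, a cytosine analogue that traps DNA methyltransferases, and vehicle embryos were wild type and received its vehicle. Control embryos were wild type and untreated. Each group had 3 libraries, each a pool of 2 embryos by the extraction protocol, so that single embryos were not measured and the p-values cover the spread between pools. The series design text speaks instead of 3 pooled animals, and the sources do not settle this. For the Cre driver, the recombined cells, the strains, and the dose, route and timing of AzadC and vehicle, nothing is stated in the sources used here.

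Mitochondria keep a small circular genome of their own, whose proteins are all subunits of the machinery that makes ATP by respiration. Its strands are copied into long precursor RNAs, from which messenger RNAs are cut, mostly at the transfer RNAs that lie between them. All members but mt-Nd6 read in the heavy-strand transcript's direction, and mt-Nd6 lies on the other strand. The remaining subunits, and every protein that copies, cuts, protects, degrades or translates these RNAs, are encoded in the nucleus. Mitochondrial RNA was measured here in whole tissue. The number of mitochondria or mitochondrial genomes in a cell, the level per genome and the mix of cells cannot be told apart.

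In mm10 the members run along chrM in the order mt-Nd1 (chrM:2751-3707), mt-Co1 (chrM:5328-6872), mt-Co2 (chrM:7013-7696), mt-Atp8 (chrM:7766-7969), mt-Atp6 (chrM:7927-8607), mt-Co3 (chrM:8607-9390), mt-Nd4 (chrM:10167-11544), mt-Nd5 (chrM:11742-13565), mt-Nd6 (chrM:13552-14070) and mt-Cytb (chrM:14145-15288). Each is annotated as a protein-coding gene, and all lie on the plus strand except mt-Nd6.

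Some sequences are shown first, because they decide what a count on a row can mean (GENCODE M21 transcripts, GRCm38/mm10, written 5′ to 3′ on the strand of the gene). The genes mt-Atp8 and mt-Atp6 lie on the same RNA and share 43 bases at chrM:7927-7969, where capitals mark the start codon of mt-Atp6 and the stop codon of mt-Atp8.
mt-Atp8 and mt-Atp6: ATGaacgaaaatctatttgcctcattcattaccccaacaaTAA
The genes mt-Nd5 (chrM:13536-13565, plus strand) and mt-Nd6 (chrM:13552-13581, minus strand) end against each other and overlap by 14 bases, in capitals.
mt-Nd5: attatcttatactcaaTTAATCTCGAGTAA
mt-Nd6: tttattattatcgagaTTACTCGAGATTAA
No strand setting of the counting is stated, so reads of mt-Nd6 and of RNA from the opposite strand cannot be told apart.
Chromosome 1 holds an inserted stretch of mitochondrial DNA, annotated between 24611535 and 24616197 as a run of pseudogenes. The end of mt-Co2 (chrM:7657-7696) and of its copy Gm28661 (chr1:24614885-24614921, minus strand) differ only in the stop codon in capitals, which the annotated copy leaves out.
mt-Co2: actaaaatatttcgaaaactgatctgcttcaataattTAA
Gm28661: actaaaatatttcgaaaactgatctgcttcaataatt
The copy of mt-Co1, Gm29216, differs from it within their shared stretch at a single base, A1066T, counted from 1 at the first base of mt-Co1 and shown in capitals (chrM:6390-6429 and chr1:24616149-24616188, minus strand).
mt-Co1: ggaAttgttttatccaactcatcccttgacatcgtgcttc
Gm29216: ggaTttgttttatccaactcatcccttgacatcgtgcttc

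These copies bear directly on 5 members. Gm28661 matched mt-Co2 in 681 of 681 bases, Gm10925 matched mt-Atp6 in 678 of 678, Gm28437 matched mt-Co3 in 783 of 783, and Gm28439 matched 876 bases of mt-Nd4 without a difference. Gm29216 matched mt-Co1 in 482 of 483 aligned bases. The authors' counting with RSEM shares a read that fits several genes between their rows, and the shares it chose were unequal. For mt-Co2, from 7.33% to 16.5% of the counts on it and its copies sat on the mitochondrial row, for mt-Co3 from 7.68% to 14.7%, and for mt-Atp6 from 9.89% to 16.4%. For mt-Co1 the mitochondrial row held 93.6% to 96.0%, and for mt-Nd4 98.9% to 99.7%. The other 5 members, mt-Nd1, mt-Nd5, mt-Nd6, mt-Cytb and mt-Atp8, share no run of 50 bases with another annotated transcript, and their expected counts were whole numbers in all 12 libraries. The search covered annotated transcripts only. The last 43 bases of mt-Atp8, shared with mt-Atp6, recur in Gm10925. mt-Atp8 starts between mt-Co2 and mt-Atp6, and the chromosome 1 sequence between their copies was not searched. An unannotated copy of mt-Atp8 there was therefore not tested. Reads of an identical copy and of the mitochondrial gene cannot be told apart, so the levels of mt-Co2, mt-Co3 and mt-Atp6 are given both on the gene's row and summed with the copies. The sum also takes in more distant copies on other chromosomes that share runs of 50 bases, and was chosen after the data were seen.

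**Figure D1:**
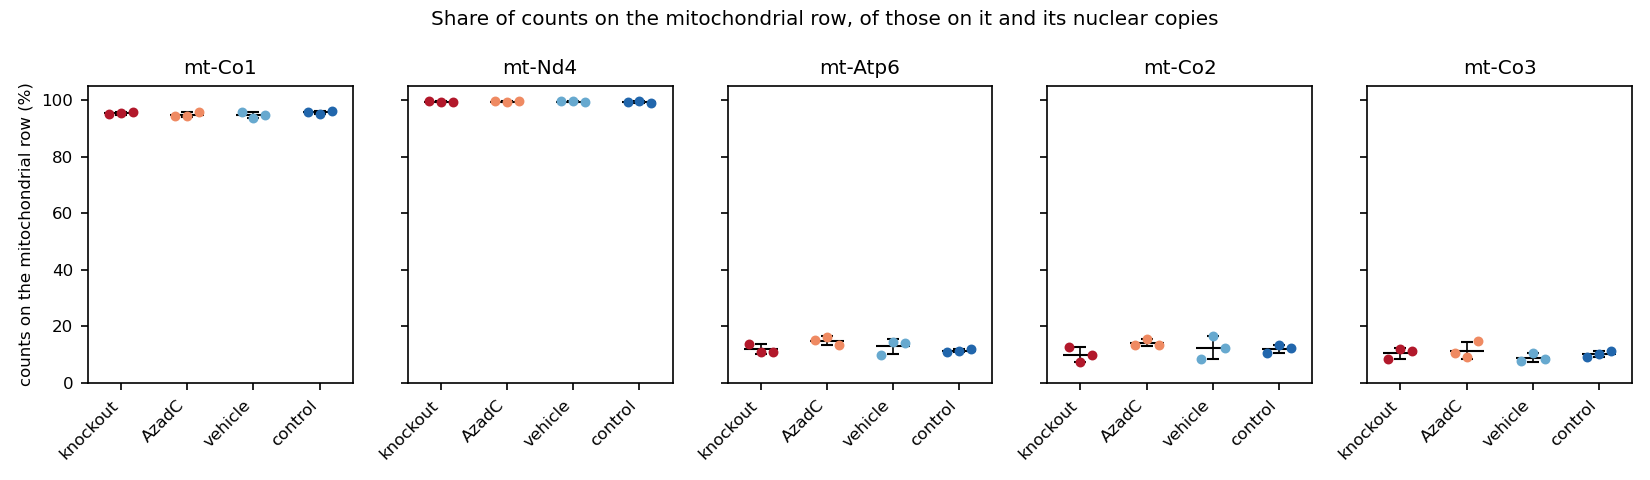
Percent of counts on the mitochondrial row, of those on that row and its nuclear copies together (vertical axis), for 5 transcripts in each library (points, with group mean and SD as bars, n = 3). For mt-Co2, mt-Co3 and mt-Atp6 at most 16.5% of the counts lay on the mitochondrial row in any library.

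Libraries held 12640536 (AzadC 1) to 33113790 (control 1) expected counts, and the 10 members took 235071 to 580239 of them. Dnmt1 stood at 198, 177 and 189.5 CPM (counts per 1e6 counts of the library) in the knockout libraries, against 289.8, 279 and 262 CPM in control libraries (log2 change -0.52, SE 0.07, edgeR adjusted p = 0.000369). It stood at 410.0, 474 and 413 CPM in AzadC and 457, 448 and 449 CPM in vehicle libraries, so the control libraries were below both of the other wild type groups. All 10 palatal mesenchyme markers examined had counts in every library, among them Osr2, Pax9 and Tbx22. Summed markers of other tissues differed between libraries. The 10 macrophage markers summed to 297 to 334 CPM in knockout libraries and 125 to 143 CPM in AzadC libraries. They summed to 80.0 to 109 CPM in vehicle and 68.1 to 94.7 CPM in control libraries. Cartilage and bone markers summed to 301 to 492 CPM in knockout libraries and to 863 to 2340.2 CPM over the other 9. Skeletal muscle markers ran from 5.90 CPM in control 3 to 904 CPM in knockout 1. Nuclear respiratory chain subunits are also taken up below, because they form the same complexes.

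The members were among the most abundant transcripts. On their own rows, without copies, they made up 1.72%, 1.83% and 1.94% of all counts in the knockout libraries and 1.86%, 1.75% and 1.79% in AzadC libraries. The shares were 1.58%, 1.47% and 1.55% in vehicle libraries and 1.75%, 1.65% and 1.87% in control libraries. The vehicle libraries were the lowest, with no overlap with any of the other 9. In every library mt-Co1 had rank 2 or 3 of all genes, and 5 members were among the highest 100 genes. All 22 transfer RNAs had 0 counts in every library, and the 2 ribosomal RNAs held 0.0260% to 0.0444% of counts.

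Compared per length, in TPM as the authors deposited it, mt-Co1 led with a mean of 9654 TPM over the 12 libraries (range 7913 to 10994). It encodes the catalytic core subunit of complex IV, cytochrome c oxidase, which passes electrons to oxygen. Leaving aside mt-Atp8, whose mean of 7665 TPM was the second highest but whose range overlapped both neighbours, it was followed by mt-Cytb, the core of complex III, at 5416 TPM (4950.2 to 5802), mt-Nd1 at 3792 TPM (3267 to 4299), and mt-Nd4 at 2409 TPM (1919.9 to 3115). The ranges of these 4 did not overlap between neighbours in this order, while mt-Nd5, at 1360.2 TPM, and mt-Nd6, at 1347 TPM, overlapped. The rows of mt-Co2, mt-Co3 and mt-Atp6 stood lowest, at 1198, 958 and 792 TPM, but these rows hold the minor part of the reads. With copies summed and divided by effective length, mt-Co2 had a mean of 6389 CPM per kilobase and mt-Co3 5952, beside 6500.2 for mt-Co1, with overlapping ranges. The sum put mt-Atp6 at 4013 CPM per kilobase, above mt-Cytb at 3470.2.

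For mt-Atp8, the smallest member at 204 bases, TPM ran from 3811 in vehicle 2 to 17730 in control 3, whose effective lengths were nearly equal at 16.3 bases each, so that these extremes follow its counts. Over all libraries the effective length was only 8.21 bases in vehicle 1 to 21.2 bases in knockout 1. The mean fragment implied by the effective lengths of mt-Nd5 was 221 to 268 bases, longer than the whole mt-Atp8 gene in every library. Knockout 1 had the shortest implied fragments and vehicle 1 the longest. The part of fragment length in the counts of mt-Atp8 was not tested.

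**Figure D2:**
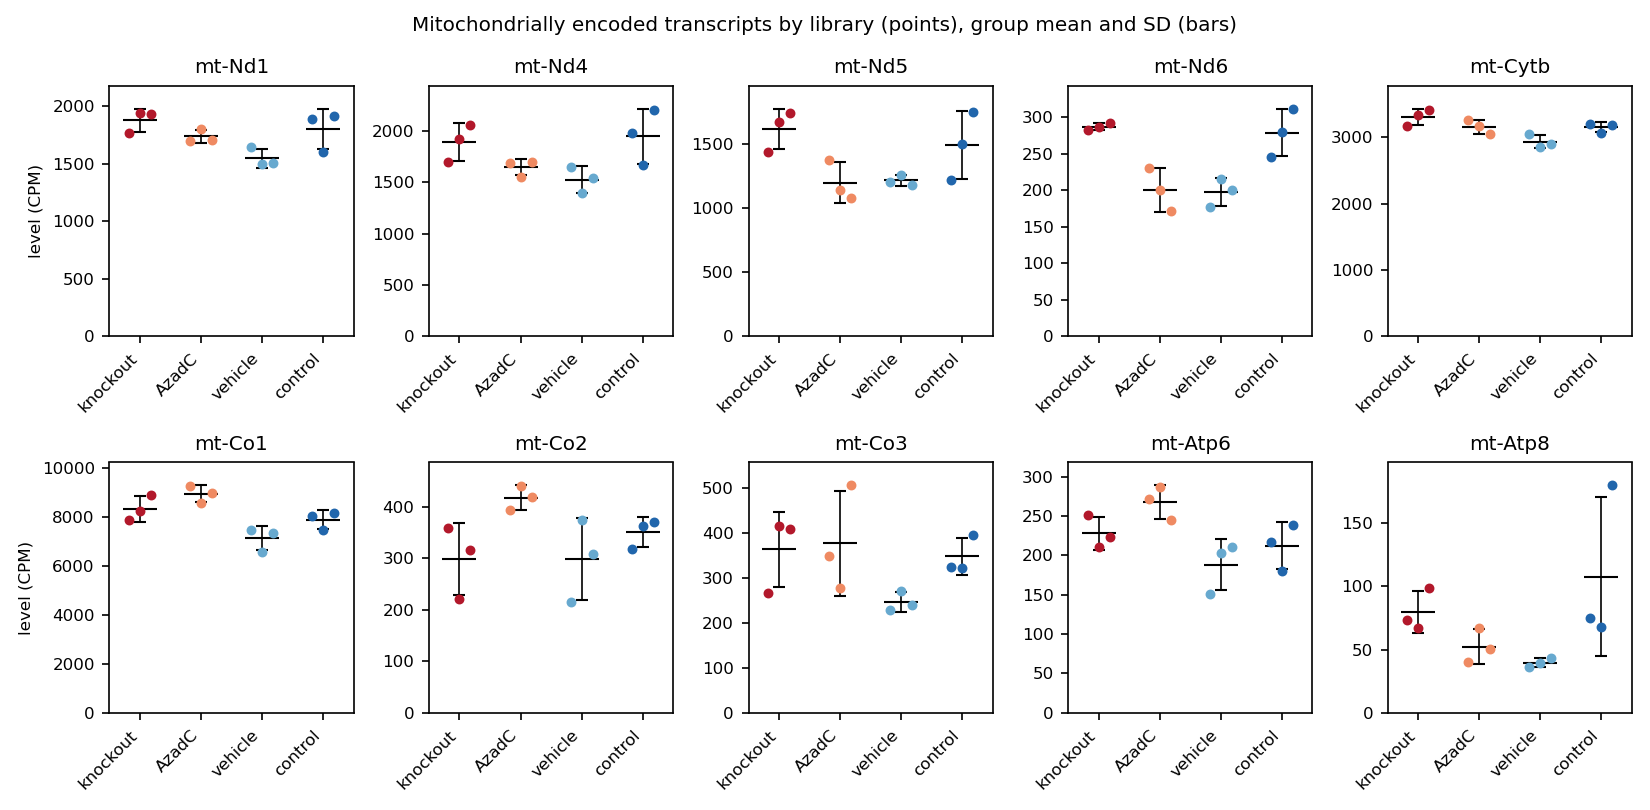
Level in CPM (vertical axis, from 0) of each of the 10 transcripts in each library (points), with the group mean and SD (bars, n = 3 libraries). For mt-Nd6 all 3 knockout libraries sit between 282 and 292 CPM and all 3 vehicle libraries between 178 and 216 CPM, while mt-Atp8 in control 3, at 179.7 CPM, stands apart from the other 11 libraries.

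The first comparison, knockout against control, asked whether these transcripts differ when Dnmt1 is deleted. No member passed: 0 of 10 was higher and 0 lower at an adjusted p below 0.05 (edgeR quasi-likelihood test, Benjamini-Hochberg over 17335 genes), where 7.83% of all genes were called higher and 6.43% lower. None had an unadjusted p under 0.05, and DESeq2 and limma-voom also called 0. In 7 members the estimate was above 0 and in 3 below, with a median log2 change of 0.09 against -0.00 for all genes.

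By complex, the complex I subunits mt-Nd1, mt-Nd4, mt-Nd5 and mt-Nd6 belong to NADH dehydrogenase, which feeds electrons into the chain. mt-Nd1, near the site where ubiquinone binds, had 1764, 1938 and 1928 CPM in knockout libraries, against 1889, 1599 and 1917 CPM in control libraries. mt-Nd4, a proton-pumping subunit, had 1697, 1923 and 2059.6 CPM in knockout, against 1979, 1671 and 2202 CPM in control libraries. The groups overlapped for both, with log2 changes of 0.09 (SE 0.07) and -0.01 (SE 0.10). mt-Nd5, another proton-pumping subunit, had 1439.7, 1667 and 1741 CPM in knockout, against 1219, 1497 and 1748 CPM in control libraries. mt-Nd6, the light-strand gene, had 282, 287 and 292 CPM in knockout, against 246, 280.1 and 311 CPM in control libraries. The control libraries of mt-Nd5 and mt-Nd6 enclosed all knockout libraries, whose spread for mt-Nd6 was small (SD 4.69 CPM in knockout and 32.7 CPM in control, n = 3 each).

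For complex III, mt-Cytb had 3168, 3341 and 3406 CPM in knockout libraries, against 3199, 3059.6 and 3184 CPM in control libraries. It came nearest to the threshold, at 0.10 (SE 0.05, edgeR adjusted p = 0.231) on the log2 scale. For complex IV, mt-Co1 had 7858, 8228 and 8893 CPM in knockout, against 8057, 7459.6 and 8158 CPM in control libraries (log2 change 0.11, SE 0.06, edgeR adjusted p = 0.297). In both genes the highest library was knockout 3 and the groups overlapped. mt-Co2, which carries the copper centre that takes electrons from cytochrome c, had a log2 change of -0.20 (SE 0.18) on its row. With its copies it had 2801, 3021 and 3213 CPM in knockout, against 3045, 2718 and 3029 CPM in control libraries, and the change was 0.07, of the other sign. mt-Co3, another core subunit, had 267, 414 and 409 CPM on its row in knockout, against 325, 322 and 395 CPM in control libraries (log2 change 0.10, SE 0.19). With its copy it had 3218, 3460.3 and 3642 CPM in knockout, against 3607, 3169 and 3547 CPM in control libraries. The groups overlapped in both views, and the knockout libraries of the row were spread more widely than those of the sum.

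For ATP synthase, mt-Atp6, the membrane subunit beside the rotor, had 251, 210.4 and 223 CPM on its row in knockout, against 217, 180.4 and 239 CPM in control libraries (log2 change 0.14, SE 0.13). With its copy the level was 1816, 1945 and 2062 CPM in knockout, against 2016, 1579 and 2001 CPM in control libraries, again with overlap. Control 3 decided the direction of mt-Atp8, which encodes a small ATP synthase subunit. It had 73.6, 66.9 and 98.4 CPM in knockout libraries, against 75.1, 68.0 and 179.7 CPM in control libraries (log2 change -0.39, SE 0.30, edgeR adjusted p = 0.439). Without control 3 the estimate was 0.19. None of the 10 was called in this comparison under any of the 22 other settings tried.

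The second comparison, AzadC against vehicle, asked whether the drug changes these transcripts. Again 0 of 10 passed with edgeR, in a comparison where 0.00577% of all genes were called higher and 0.00577% lower, that is 1 gene each. In 9 members the estimate was above 0, the median log2 change was 0.25 against -0.00 for all genes, and 5 members had an unadjusted p under 0.05. With limma-voom 0 passed, while DESeq2 called 2 members higher, mt-Co1 and mt-Atp6, beside 0.467% of all genes. For 6 members all AzadC libraries were above all vehicle libraries, a pattern that 5.70% of all genes had.

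Among those 6 was mt-Co1, with 9283, 8585 and 8969 CPM in AzadC libraries, against 7455, 6579 and 7359 CPM in vehicle libraries. Its log2 change was 0.33 (SE 0.06, edgeR adjusted p = 0.136, higher in 3 of 3 AzadC libraries), with 0.000405 by DESeq2. mt-Cytb had 3262, 3165 and 3048 CPM in AzadC, against 3041, 2858 and 2904 CPM in vehicle libraries (log2 change 0.11, SE 0.05, edgeR adjusted p = 0.793). The lowest AzadC library of mt-Cytb lay only just above the highest vehicle library.

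mt-Nd1 had 1700.2, 1804 and 1709 CPM in AzadC, against 1645, 1499 and 1505 CPM in vehicle libraries (log2 change 0.17, SE 0.07, edgeR adjusted p = 0.772). The 3 members with the largest estimates, mt-Co3 at 0.62 (SE 0.19), mt-Atp6 at 0.51 (SE 0.13) and mt-Co2 at 0.48 (SE 0.18), are the 3 whose rows hold the minor part of their reads. On their rows mt-Co3 had 348, 278 and 506 CPM in AzadC, against 229, 271 and 239.8 CPM in vehicle libraries, and mt-Co2 had 393, 440.5 and 419 CPM in AzadC, against 216, 374 and 308 CPM in vehicle libraries. The lowest AzadC library of mt-Co3 was close to the highest vehicle library. Summed with the copies, their estimates were 0.24, 0.30 and 0.28. mt-Atp6 with its copy had 1788, 1752 and 1851 CPM in AzadC libraries, against 1523, 1402 and 1485 CPM in vehicle libraries, and mt-Co3 had 3343, 3034 and 3438 CPM in AzadC, against 2982, 2539 and 2839 CPM in vehicle libraries. The AzadC libraries stayed above the vehicle libraries in both sums.

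For the other complex I members the groups overlapped. mt-Nd5 had 1376, 1138 and 1077 CPM in AzadC libraries, against 1206, 1259 and 1179 CPM in vehicle libraries, and mt-Nd6 had 231, 199.9 and 171 CPM in AzadC, against 178, 216 and 199.9 CPM in vehicle libraries. Their log2 changes were -0.02 (SE 0.12) and 0.02 (SE 0.11). mt-Nd4 changed by 0.11 (SE 0.10) and mt-Atp8 by 0.41 (SE 0.31), also with overlap. Within the counts on the members' own rows, without copies, mt-Co1 took 49.9%, 49.0% and 50.1% in AzadC libraries and 47.2%, 44.8% and 47.5% in vehicle libraries. It took 43.6% to 46.0% over the knockout and control libraries, so the 3 AzadC libraries stood above the other 9. mt-Nd5 took 6.02% to 7.40% in AzadC libraries and 7.61% to 8.57% in vehicle libraries.

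**Figure D3:**
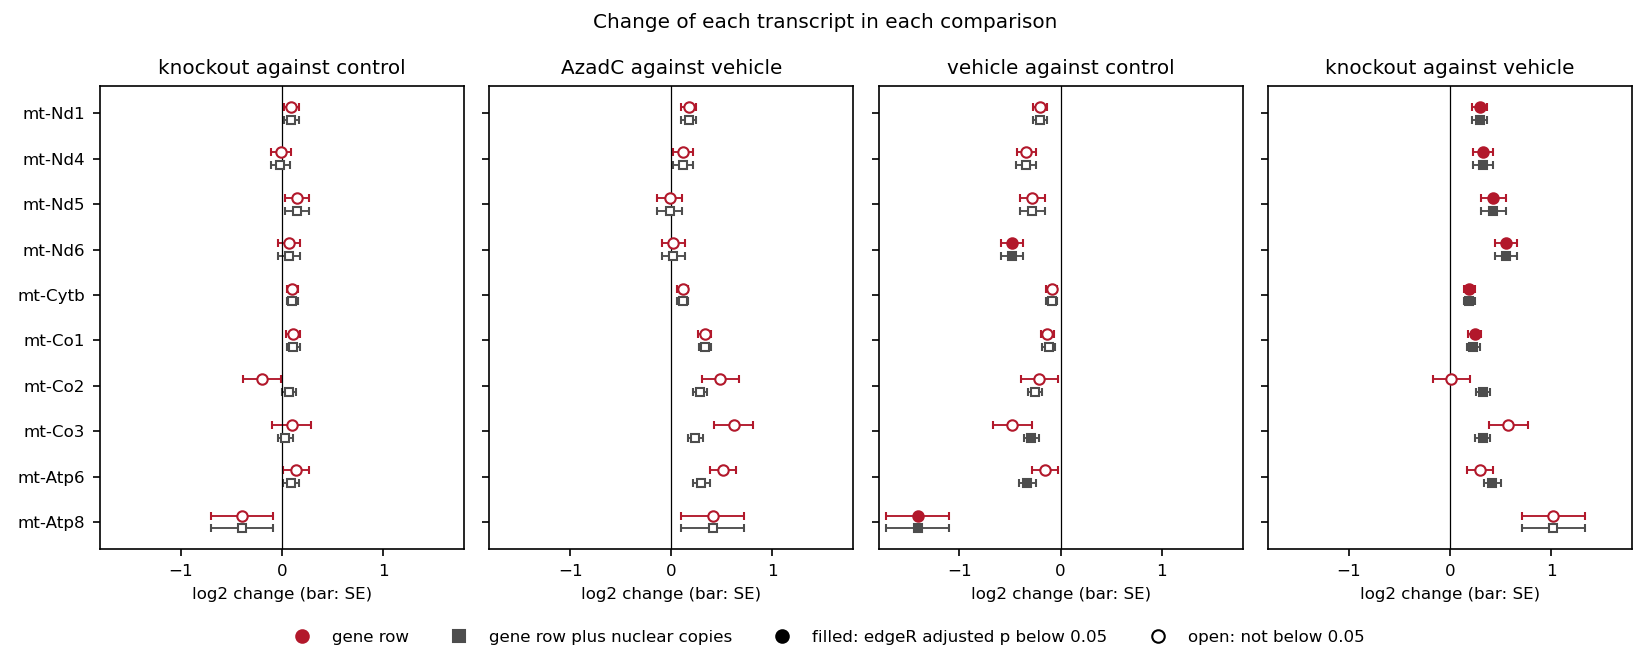
Log2 change (horizontal axis, bars are the SE) of each transcript in 4 comparisons, on the gene's own row (circles) and summed with its nuclear copies (squares); filled symbols have an edgeR adjusted p below 0.05. No circle is filled in the knockout against control or AzadC against vehicle, 2 are filled below 0 for vehicle against control and 6 above 0 for knockout against vehicle.

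Vehicle against control sets the treated and untreated wild type libraries without the drug against each other. Of the 10 members 2 were lower and 0 higher with edgeR, where 2.06% of all genes were called lower and 1.46% higher. All 10 estimates were below 0, with a median log2 change of -0.24 against -0.00 for all genes. For 6 members every vehicle library lay below every control library, as did 12.7% of all genes. Vehicle treatment and any difference in handling, litters or strain between these groups cannot be told apart. In the same comparison 5 of 10 cartilage and bone, 2 of 10 neuronal and 2 of 10 epithelial markers were lower, and 3 of 10 erythroid, 1 of 10 macrophage and 1 of 10 neuronal markers were higher. Their part in the members' levels was not tested.

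mt-Nd6 had 178, 216 and 199.9 CPM in vehicle libraries, against 246, 280.1 and 311 CPM in control libraries (log2 change -0.48, SE 0.11, edgeR adjusted p = 0.0312). The groups did not overlap. The call was lost without control 2 (0.0791), control 3 (0.0997), vehicle 1 (0.133) or vehicle 3 (0.102), and under the replicate block (0.0514). mt-Atp8 had 36.0, 39.4 and 43.5 CPM in vehicle, against 75.1, 68.0 and 179.7 CPM in control libraries (log2 change -1.41, SE 0.31, edgeR adjusted p = 0.0270). Without control 3 the change was -0.83 and still passed, whereas the call was lost without vehicle 1 (0.111), vehicle 2 (0.0725) or vehicle 3 (0.0861), and with only the groups compared (0.0565).

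mt-Nd4 had 1647, 1393 and 1544 CPM in vehicle libraries, against 1979, 1671 and 2202 CPM in control libraries. Its lowest control library lay just above its highest vehicle library, and its log2 change of -0.34 (SE 0.10) had an edgeR adjusted p of 0.0706, while DESeq2 called it at 0.0124. With copies summed, 4 members were lower, mt-Atp6 (-0.33, edgeR adjusted p = 0.0462) and mt-Co3 (-0.29, 0.0485) being added, where 2.10% of all genes were called. mt-Co1, at -0.13 (SE 0.06), and mt-Cytb, at -0.09 (SE 0.05), had the smallest estimates and did not pass, although their groups did not overlap.

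Because vehicle and control libraries differed, the knockout was also set against the vehicle libraries. The knockout embryos were untreated, whereas the vehicle embryos were wild type and received vehicle. The Dnmt1 deletion, vehicle treatment and any difference in handling, litters or strain therefore cannot be told apart in this comparison. Here 6 of 10 members were higher and 0 lower with edgeR, where 6.70% of all genes were called higher and 4.13% lower. All 10 estimates were above 0, with a median log2 change of 0.31 against -0.00 for all genes, and for 7 members all knockout libraries lay above all vehicle libraries, as did 14.5% of all genes. This comparison shares the knockout libraries with knockout against control and the vehicle libraries with the other pair, so the 4 comparisons are not independent. Beside it, all 10 macrophage markers, 2 of 10 neuronal and 1 of 10 epithelial markers were called higher. Lower were 3 of 10 erythroid, 2 of 10 cartilage and bone and 2 of 10 palatal mesenchyme markers. The part of these lists in the members' levels was not tested.

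Against vehicle, 4 of the 6 higher members belong to complex I. mt-Nd6 had 282, 287 and 292 CPM in knockout libraries, against 178, 216 and 199.9 CPM in vehicle libraries (log2 change 0.55, SE 0.11, edgeR adjusted p = 0.00560). It kept its call in all 22 other settings, with adjusted p up to 0.0255. mt-Nd5 had 1439.7, 1667 and 1741 CPM in knockout, against 1206, 1259 and 1179 CPM in vehicle libraries (0.43, SE 0.12, edgeR adjusted p = 0.0366). mt-Nd4 changed by 0.33 (SE 0.10, edgeR adjusted p = 0.0445) and mt-Nd1 by 0.30 (SE 0.07, edgeR adjusted p = 0.0201). The knockout and vehicle libraries did not overlap for any of these 4.

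The other 2 were mt-Co1, with 7858, 8228 and 8893 CPM in knockout libraries, against 7455, 6579 and 7359 CPM in vehicle libraries (0.24, SE 0.06, edgeR adjusted p = 0.0288), and mt-Cytb (0.19, SE 0.05, edgeR adjusted p = 0.0358). mt-Atp8 had 73.6, 66.9 and 98.4 CPM in knockout, against 36.0, 39.4 and 43.5 CPM in vehicle libraries, without overlap. Its log2 change of 1.02 (SE 0.31) narrowly missed the threshold (edgeR adjusted p = 0.0524). Leaving out knockout 2, knockout 3, vehicle 2 or vehicle 3, each in turn, left only mt-Nd6 called of the 10. The call of mt-Nd4 was also lost without control 1 or any single AzadC library, with adjusted p of 0.0507 to 0.0599, and that of mt-Nd5 without vehicle 1 (0.0914). With library totals alone in place of TMM, mt-Nd4 (0.0657), mt-Cytb (0.0563) and, narrowly, mt-Co1 fell short, and mt-Nd1, mt-Nd5 and mt-Nd6 passed. Under the replicate block mt-Nd5 (0.0564) and mt-Cytb (0.0642) lost their calls and mt-Atp8 (0.0302) gained one, and without the filter on low counts mt-Cytb (0.101) lost its call.

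With copies summed, 9 of 10 members passed as higher in knockout libraries, where 6.71% of all genes were called. mt-Co2 moved most between the views. On its row it had 358, 221 and 317 CPM in knockout libraries, against 216, 374 and 308 CPM in vehicle libraries (log2 change 0.01, SE 0.18). With its copies it had 2801, 3021 and 3213 CPM in knockout, against 2548, 2268 and 2501 CPM in vehicle libraries (log2 change 0.32, SE 0.07, edgeR adjusted p = 0.00842). mt-Co3 had 0.32 (0.0128) and mt-Atp6 0.42 (0.00544) in the same sums. The sums of mt-Co2 did not overlap between the groups, while on the row they did.

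As a direct test of whether the knockout and AzadC effects differ, the AzadC effect was subtracted from the knockout effect. With edgeR 0 of 10 members passed, where 2.20% of all genes were called higher and 2.20% lower. An unadjusted p under 0.05 was reached by 2, and DESeq2 and limma-voom called 0. The lowest adjusted p was 0.156, for mt-Co2 on its row (-0.68, SE 0.26), and with its copies summed the estimate was -0.21.

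Summed over the 10 members, the TMM-scaled level was 17384, 18547 and 19488 CPM in knockout libraries, 18510.5, 17791 and 17811 CPM in AzadC, 15632, 14790.3 and 15476 CPM in vehicle and 17285, 16408 and 18434 CPM in control libraries. The 3 vehicle libraries were below the other 9. AzadC libraries averaged 18038 ± 409.7 CPM and vehicle libraries 15299 ± 448 CPM (SD, n = 3 each), 17.9% higher in AzadC. Knockout libraries averaged 18473 ± 1054 CPM and control libraries 17376 ± 1016 CPM (SD, n = 3 each), a difference of 6.32% with overlap. An exact two-sided permutation test of 3 against 3 cannot go below p = 0.1. It gave 0.1 for AzadC against vehicle, vehicle against control and knockout against vehicle, and 0.2 for knockout against control (0.133, 0.133, 0.133 and 0.2 after adjustment over these 4).

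**Figure D4:**
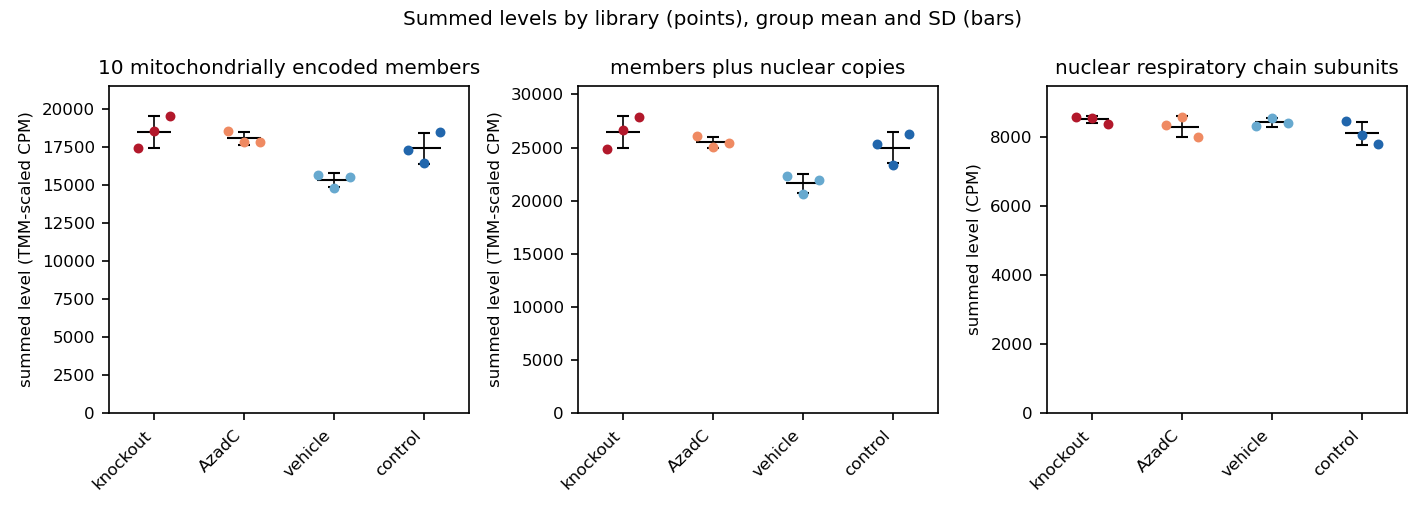
Summed level by library (points, with group mean and SD as bars, n = 3) of the 10 members, of the members plus their nuclear copies, and of the nuclear-encoded respiratory chain subunits (vertical axes in CPM, from 0; the first 2 panels TMM-scaled). The vehicle libraries are the lowest in the first 2 panels and lie within the range of the other groups in the third.

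Outside the members, 2 other mitochondrial genes were called in knockout against vehicle. mt-Nd2, a further proton-pumping complex I subunit, had 1011, 1171 and 1111 CPM in knockout libraries and 913, 900.3 and 880.3 CPM in vehicle libraries (log2 change 0.31, SE 0.08, edgeR adjusted p = 0.0261). The ribosomal RNA mt-Rnr1 was also higher in knockout than in vehicle libraries (0.51, SE 0.12, edgeR adjusted p = 0.0185), and mt-Rnr2 was not called (0.37, SE 0.11, edgeR adjusted p = 0.0583). mt-Nd4l, whose copy Gm10222 is identical over 294 bases, and mt-Nd3 were not called on their own rows in any comparison. None of these 5 mitochondrial genes was called in knockout against control or in AzadC against vehicle. The row of mt-Nd4l averaged 62.9 CPM beside 167 CPM for Gm10222, and that of mt-Nd3 35.4 CPM beside 213 CPM for its copy Gm28438. In knockout against vehicle Gm10222 was called higher (0.68, SE 0.16, edgeR adjusted p = 0.0130) and Gm28438 was not (0.32, SE 0.10, edgeR adjusted p = 0.0638). mt-Nd4l and mt-Nd3 were not summed with their copies. The libraries were made with an mRNA kit, so the ribosomal RNAs' low level is not their level in the tissue.

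The genes outside the mitochondrial genome whose centred log2 CPM most resembled the members' mean over the 12 libraries were Cd47 (Pearson r = 0.94), Zcchc7 (0.93), Fzd10 (0.90), Anxa1 (0.90) and Ptar1 (0.90), ranked among 10212 genes above 10 CPM. The members' own r with their mean ran from 0.32 for mt-Co2 to 0.88 for mt-Atp8. All points share libraries and scaling, and the members enter their own mean, so these values describe likeness in these libraries only.

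The nuclear-encoded partners had a summed level of 8316, 8569 and 8414 CPM in vehicle libraries, within the 7806 to 8588 CPM of the other 9. Of 77 nuclear subunits of complexes I to V and cytochrome c, 0 was called in vehicle against control or in AzadC against vehicle, 5 were higher in knockout than in control libraries and 3 higher in knockout than in vehicle libraries, with 0 lower. Of all genes 7.83% were called higher in knockout against control and 6.70% in knockout against vehicle, so that both counts of these subunits lie below the share over all genes. Their median log2 change in vehicle against control was 0.04, beside -0.24 for the 10 members. The 3 higher than in vehicle libraries were Ndufc2, Cox8a and Atp5pb, and of these only Atp5pb was also among the 5 higher than in control libraries. The 5 were the ATP synthase subunits Atp5pb, Atp5a1 and Atp5b, the complex IV subunit Cox4i1 and the complex I subunit Ndufb9, at log2 changes of 0.17 to 0.25. This count was 0 without knockout 2 or control 2, 1 without knockout 1 or control 3, 3 without knockout 3 and 2 without vehicle 3, and the count of 3 against vehicle was 0 without knockout 1, knockout 2 or vehicle 1 and 1 without vehicle 3. Against control it was also 2 with library totals alone, without the filter on low counts or with only the groups compared, and against vehicle it was 1 under the replicate block. The members' summed CPM was 1.90, 1.71 and 1.84 times the nuclear sum in vehicle libraries and 1.998 to 2.40 times in the other 9. Of 79 mitochondrial ribosomal protein genes, 1 was called in knockout against control and 0 in the other comparisons.

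The counts over the following nuclear lists in knockout against control are read against 7.83% of all genes called higher and 6.43% called lower. Pnpt1, which encodes polynucleotide phosphorylase, an RNA-degrading enzyme of mitochondria, had 170.2, 214 and 159.8 CPM in knockout libraries, against 51.6, 46.5 and 48.6 CPM in control libraries (log2 change 1.92, SE 0.10, edgeR adjusted p = 7.22e-08). Lrpprc, which stabilises mitochondrial messenger RNAs, rose by 0.28 (SE 0.07, edgeR adjusted p = 0.0163), a call lost without knockout 2 or control 1. Fastkd1, of an RNA-binding family, fell by 0.36 on the log2 scale, so that 2 of 24 genes of RNA processing and decay were higher and 1 lower, near the shares over all genes. The call of Fastkd1 was lost without any single knockout or control library or AzadC 1. Of 18 genes of mitochondrial DNA transcription and replication only Mterf4, a regulator of mitochondrial ribosome assembly, was called, with 71.0, 65.5 and 69.1 CPM in knockout, against 98.5, 117 and 82.0 CPM in control libraries (-0.50, SE 0.11, edgeR adjusted p = 0.00691). None of these 4 was called in AzadC against vehicle, where 1 of 17335 genes was called higher and 1 lower. In knockout against vehicle Pnpt1 (1.89), Fastkd1 (-0.38) and Mterf4 (-0.69) were also called, and Lrpprc was not. There Hsd17b10, of the RNA processing and decay list, was called lower (-0.29, SE 0.07, edgeR adjusted p = 0.0154). Of all genes 6.70% were called higher and 4.13% lower in that comparison.

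Of 12 tested genes of mitochondrial stress, 5 were higher and 0 lower in knockout against control, where 7.83% of all genes were called higher: Atf5, a transcription factor of the mitochondrial stress response (2.10, SE 0.17, edgeR adjusted p = 3.86e-06), the chaperones Hspa9 (0.48), Hspd1 (0.49) and Hspe1 (0.60), and Fgf21, a secreted stress hormone. Fgf21 had 0 counts in all control libraries and averaged 1.08 ± 0.430 CPM in knockout libraries (SD, n = 3), which is at least 27.6-fold higher when 3 counts over the 3 control libraries together are taken as the floor. In AzadC against vehicle 0 of the 12 passed, where 1 of 17335 genes was called higher and 1 lower. This list was chosen with earlier results of these data known, so its counts are no test of enrichment. Among 11 regulators of mitochondrial biogenesis only Ppargc1a was called, beside 6.43% of all genes lower, at 3.33, 2.42 and 5.65 CPM in knockout, against 8.06, 7.85 and 9.08 CPM in control libraries (-1.11, SE 0.32, edgeR adjusted p = 0.0341). Its call was lost without knockout 1, knockout 2 or any single control library. Ppargc1a was not called in knockout against vehicle. It averaged 5.82 CPM in vehicle and 4.41 CPM in AzadC libraries, and the knockout libraries overlapped both of these groups. All control libraries stood above every library of the other groups.

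**Figure D5:**
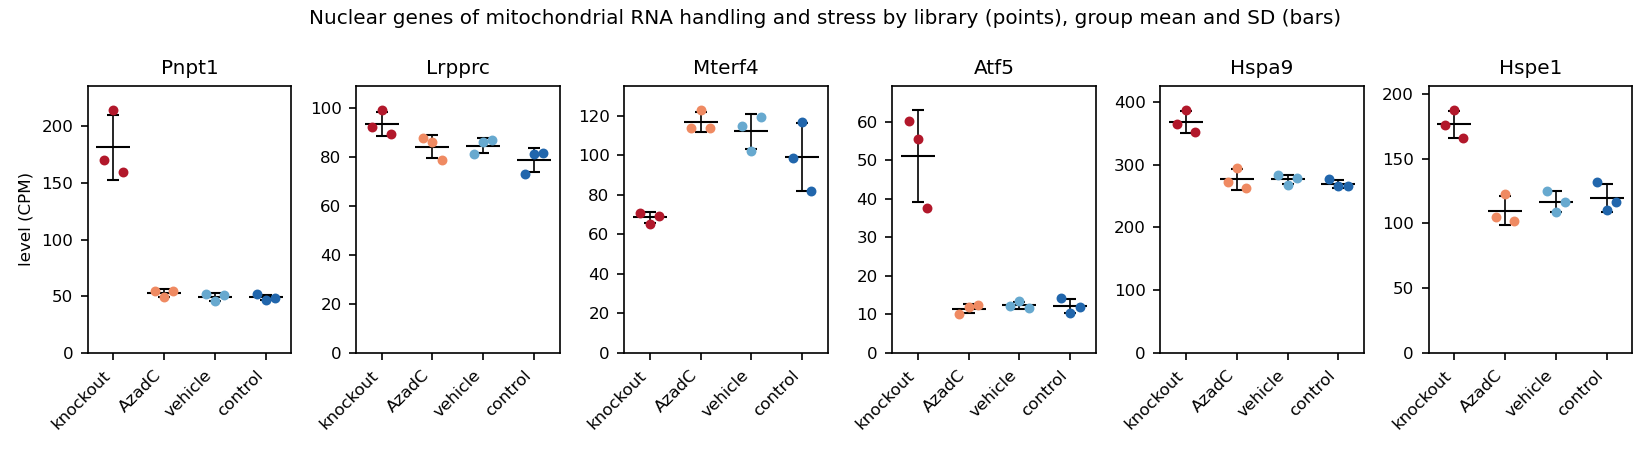
Level in CPM (vertical axes, from 0) by library (points, with group mean and SD as bars, n = 3) of 6 nuclear genes of mitochondrial RNA handling and stress. Pnpt1, Atf5, Hspa9 and Hspe1 are higher, and Mterf4 is lower, in all 3 knockout libraries than in the other 9.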

How the data were processed

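RNA-seq libraries of palatal shelves (4 groups of 3) were read from per-library tables. The authors deposited expected counts and TPM from RSEM 1.3.1 with STAR 2.7.0 on mm10, per the submitters' processing notes, which also name FastQC, Trim Galore and DESeq2, and per the file headers. The mRNA kit is named in the labels' protocols. Groups came from the sample labels. CPM is the expected count times 1e6 over the library's sum of expected counts.

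Expected counts were rounded and fitted in R 4.3.3 with edgeR 4.0.16 (filterByExpr by group, TMM factors 0.985 to 1.01, 1 mean per group over 12 libraries, glmQLFit and glmQLFTest, 17335 genes, common coefficient of biological variation 0.152), with Benjamini-Hochberg adjustment and a threshold of 0.05. An SE is the absolute log2 change over the square root of the F statistic. The script was tested on simulated data. Nuclear copies were sought as shared 50-base runs in GENCODE M21 transcripts. Whole counts were taken within 0.005.

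The members and lists were chosen with earlier results of these data known. Besides the members, the text draws on other tested mitochondrial genes and on the 5 genes most like the members. From each nuclear list it takes the 2 genes of smallest p in each of the first 2 comparisons. Hspd1, Fgf21, Fastkd1, Atp5a1, Ndufc2, Cox8a and Hsd17b10 lie outside these rules and are named because their lists' counts are small. Alternatives were DESeq2 1.42.0, limma-voom (limma 3.58.1), RLE scaling, library totals, scaling by genes outside the mitochondrial genome, other filters, only the groups compared, a replicate block and leaving out each library, and, chosen after the data were seen, the sum with nuclear copies. All replicate pairs of a group differed by more than sampling noise. Replicate numbers were not found to pair the samples. Counting precision is limited by depth, 12640536 to 33113790 counts per library. The expected counts per gene do not tell strands apart here.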

Additional observations from a re-analysis of the deposited data

Results flagged for a closer look

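For 6 genes of the nuclear lists the knockout effect and the AzadC effect differed by a test of the difference itself (edgeR, adjusted p below 0.05). Of all genes 2.20% were called higher and 2.20% lower by this test. The lists were chosen with earlier results of these data known, so the count of 6 is no test of enrichment. The log2 difference, knockout effect minus AzadC effect, was 1.83 for Pnpt1 (SE 0.14, edgeR adjusted p = 1.10e-05), 2.20 for Atf5 (SE 0.24, 0.000268), 0.47 for Hspa9 (SE 0.09, 0.00944), 0.54 for Hspd1 (SE 0.10, 0.00886) and 0.68 for Hspe1 (SE 0.12, 0.00980). These 5 differences also passed under the 10 other settings and without any single library. For Mterf4 it was -0.57 (SE 0.15, edgeR adjusted p = 0.0492), a call lost under the replicate block and without 11 of the 12 libraries in turn. None of the 10 mitochondrially encoded members met this test.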

How the results depend on the processing

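The count of members called in knockout against control was 0 under all 22 alternatives, and in AzadC against vehicle it was 0 under 20 of them, with 2 by DESeq2 and 4 without the filter on low counts (30933 genes). Of all genes in AzadC against vehicle, 81 of 17335 were called higher by DESeq2 and 102 of 30933 without the filter. For the difference of the effects 2 members were called lower without the filter, where 734 of 30933 genes were, and 0 otherwise. In vehicle against control the count of members was 2, with 1 under the replicate block, 3 by DESeq2, 4 without the filter and 4 with copies summed, and from 0 (without vehicle 1 or vehicle 3) to 2, with 1 without vehicle 2 or control 3, when single libraries were left out. All these calls were lower. Of all genes 357 of 17335 were called lower in the main fit and 310 of 17335 under the replicate block. The number was 756 of 17335 by DESeq2, 772 of 30933 without the filter and 364 of 17329 with copies summed. It was 90 of 17946 without vehicle 1, 85 of 17697 without vehicle 3, 250 of 17676 without vehicle 2 and 215 of 17934 without control 3. In knockout against vehicle the count of members was 6, with 3 under library totals alone, 8 without the filter, 8 with only the groups compared, 9 with copies summed, 5 under the replicate block, and from 1 (without knockout 2, knockout 3, vehicle 2 or vehicle 3) to 7 when single libraries were left out. All these calls were higher. Of all genes 1162 of 17335 were called higher in the main fit and 1083 of 17335 under library totals alone. The number was 1524 of 30933 without the filter, 1169 of 16562 with only the groups compared and 1071 of 17335 under the replicate block. It was 716 of 17883 without knockout 2, 972 of 17902 without knockout 3, 971 of 17676 without vehicle 2 and 768 of 17697 without vehicle 3. The causes were not tested, except that leaving out a library leaves fewer samples. Same-numbered knockout and control libraries correlated at 0.243, 0.0643 and 0.210, and each knockout library correlated most with its own number. For knockout 2 this was close to a tie, at 0.0624 with control 3. The pattern is only a hint from the data, and the numbers do not pair the samples by the labels.

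Over 1100 values of single members under the alternatives, 40 lost a call, 30 gained a call and 0 changed sign while called. The sign differed in 23 values that were not called, for main log2 changes of at most 0.39 in size. The summed member level kept its direction under every alternative run, with log2 ratios of 0.05 to 0.13 for knockout against control and 0.21 to 0.25 for AzadC against vehicle. At these depths mt-Atp8 had as few as 504 counts in AzadC 1, and reads of members with identical nuclear copies could not be separated.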
